A study of Mus musculus with 6 samples.

Results

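The ephrins with their Eph receptors and the semaphorins with their plexin and neuropilin receptors were examined in Met-1 TripZ-200c mouse mammary carcinoma cells with and without doxycycline (Dox). Members were the genes whose symbols carry the family names (Epha, Ephb, Efna, Efnb, Sema, Plxn, Nrp1 and Nrp2), which gave 53 of the 43548 genes in the expression table. Of these, 22 belong to the ephrin and Eph system and 31 to the semaphorin system.

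Met-1 is an established mouse line grown from an advanced mammary carcinoma of the MMTV-PyMT transgenic model, and its labelled strain is FVB/nJ. In both groups the cells hold a pTripZ lentivirus with a red fluorescent reporter, from which Dox switches on miR-200c, a microRNA known as a repressor of the epithelial-to-mesenchymal transition (EMT). The line is 1 clone, which was sorted to remove cells with leaky vector expression and then for cells with intermediate induction. The 3 control libraries received vehicle for 48 h, and the 3 treated libraries received 1 µg/mL Dox for 48 h. These times are those of the labels and the study's methods. Another passage of the study ties the sequenced samples to experiments with a longer treatment, and the labels were followed. The growth medium is labelled DMEM and the treatment medium RPMI. Empty-vector cells with Dox are not analysed here, so an effect of Dox and an effect of miR-200c cannot be told apart. Nothing in the labels places replicates in separate experiments. The passage with the longer treatment describes repeated experiments, each in triplicate, and does not say which of them supplied the libraries. The p-values therefore measure the spread between these libraries, which may be technical.

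Ephrins are ligands held on the cell surface, ephrin-As by a lipid anchor and ephrin-Bs by a transmembrane segment, and Eph receptors on a touching cell are tyrosine kinases, so that contact can signal into both cells. Class 3 semaphorins are secreted and bind neuropilins, which pair with plexins as the signalling chain, whereas most other vertebrate semaphorins are membrane proteins that bind plexins directly. Both systems were found as steering cues of growing axons and also set cell repulsion, adhesion and boundary formation in epithelia, vessels and tumors.

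Expression is given as FPKM, the reads on a gene per kilobase of transcript and scaled to library depth, so levels can be compared between genes. The spacing of low FPKM values placed the libraries at an estimated 11900000 to 19300000 mapped reads each. The transcription factors Zeb1 and Zeb2, known targets of miR-200c, fell with Dox from a mean of 41.8 to 21.2 FPKM and from 29.3 to 8.29 FPKM (limma with Benjamini-Hochberg adjustment, adjusted p = 3.62e-04 and 4.48e-05). Vim, an EMT marker, fell from a mean of 3961 to 3104 FPKM. Of 8 mammary epithelial markers, Krt18 was at 93.2 and 386 FPKM without and with Dox and Epcam at 0.128 and 4.06 FPKM. Cldn3 was at 109 and 121 FPKM and Cdh1 at 0.0585 and 0.828 FPKM, in the same order. Krt8 stayed under 1 FPKM and Krt5 was listed at 0 in every library. The 8 summed to at most 205 FPKM in a library without Dox and to 487 to 528 FPKM with Dox. Of the leukocyte markers Cd3e was listed at 0 and Cd68 had 6.31 to 11.3 FPKM; the leukocyte markers found summed to 6.35 to 11.3 FPKM without Dox and 6.72 to 7.57 FPKM with Dox. The 5 endothelial markers summed to 4.47 to 5.12 and 4.19 to 4.72 FPKM, nearly all of it from Cdh5. Among 3 adipocyte markers Adipoq and Plin1 were listed at 0 and Fabp4 fell from 12.7 to 6.82 FPKM (limma adjusted p = 0.0177), with sums of 11.1 to 13.9 and 5.09 to 8.17 FPKM. The 5 neuronal and Schwann cell markers summed to at most 1.37 FPKM, with Snap25 at 0. The part of other cell types in the results was not tested.

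Of the 53 members, 6 were listed at 0 in every library (Epha4, Epha5, Epha6, Ephb1, Sema5b and Plxna4), 15 had a mean under 1 FPKM, and 32 were tested. The tested set held 13 ephrin and Eph genes and 19 semaphorin, plexin and neuropilin genes. Highest in each subfamily were Epha2 among EphA receptors, Ephb4 among EphB receptors, Efna5 among ephrin-As, Efnb2 among ephrin-Bs, Sema3f among the class 3 semaphorins, Sema4b among the membrane semaphorins without Dox, Plxnb2 among plexins and Nrp2 among neuropilins. The same clone contained transcripts for ligands and receptors of both systems.

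**Figure D1:**
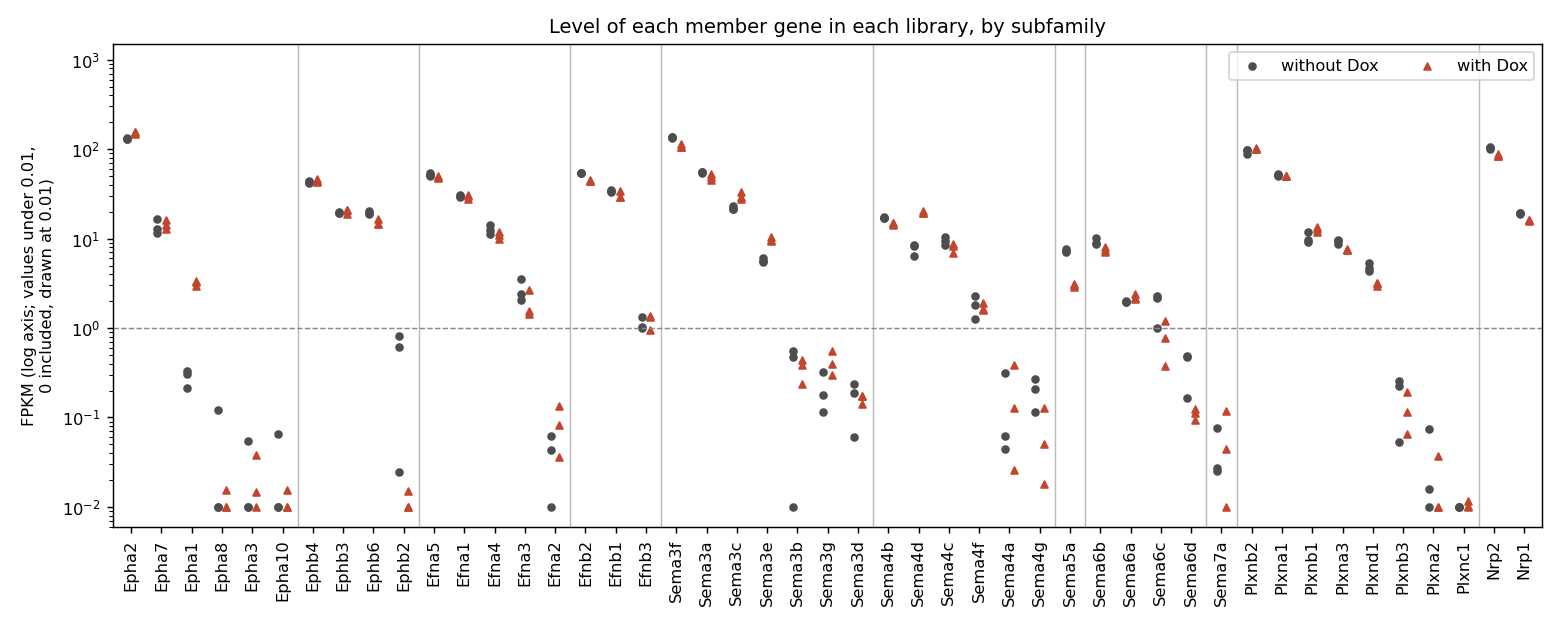
FPKM (log axis) of the 47 members above 0 in any library, ordered by subfamily and by mean level, with circles for the 3 libraries without Dox and triangles for the 3 with Dox. The dashed line marks 1 FPKM. Epha1 crosses that line with Dox, while the most abundant genes, such as Epha2, Sema3f, Plxnb2 and Nrp2, lie between 84.1 and 156 FPKM in every library.

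Of the 32 members tested, 12 passed an adjusted p of 0.05 (37.5%), 5 higher and 7 lower with Dox, where 15.0% of all 12879 genes tested passed (7.06% higher and 7.97% lower). The median log2 fold change of the 32 members was -0.12, beside 0.00 for all genes tested. Epha1, Epha2, Sema3c, Sema3e and Sema4d rose, and Ephb6, Efnb2, Sema3f, Sema5a, Plxnd1, Nrp1 and Nrp2 fell. Only 5 of the 12 changed by at least 1.5-fold, namely Epha1, Sema3e, Sema4d, Sema5a and Plxnd1. Epha1 and Sema6c reached the 1 FPKM filter through 1 group alone; among the other 30 members 11 passed (36.7%), beside 15.1% of all genes with both group means at 1 FPKM or more. The 3 libraries with Dox did not overlap the 3 without Dox in 20 of the 32 members, higher in 7 and lower in 13, where 35.0% of all genes tested did not overlap. In bulk RNA, fewer cells with a transcript and less transcript per cell cannot be told apart.

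**Figure D2:**
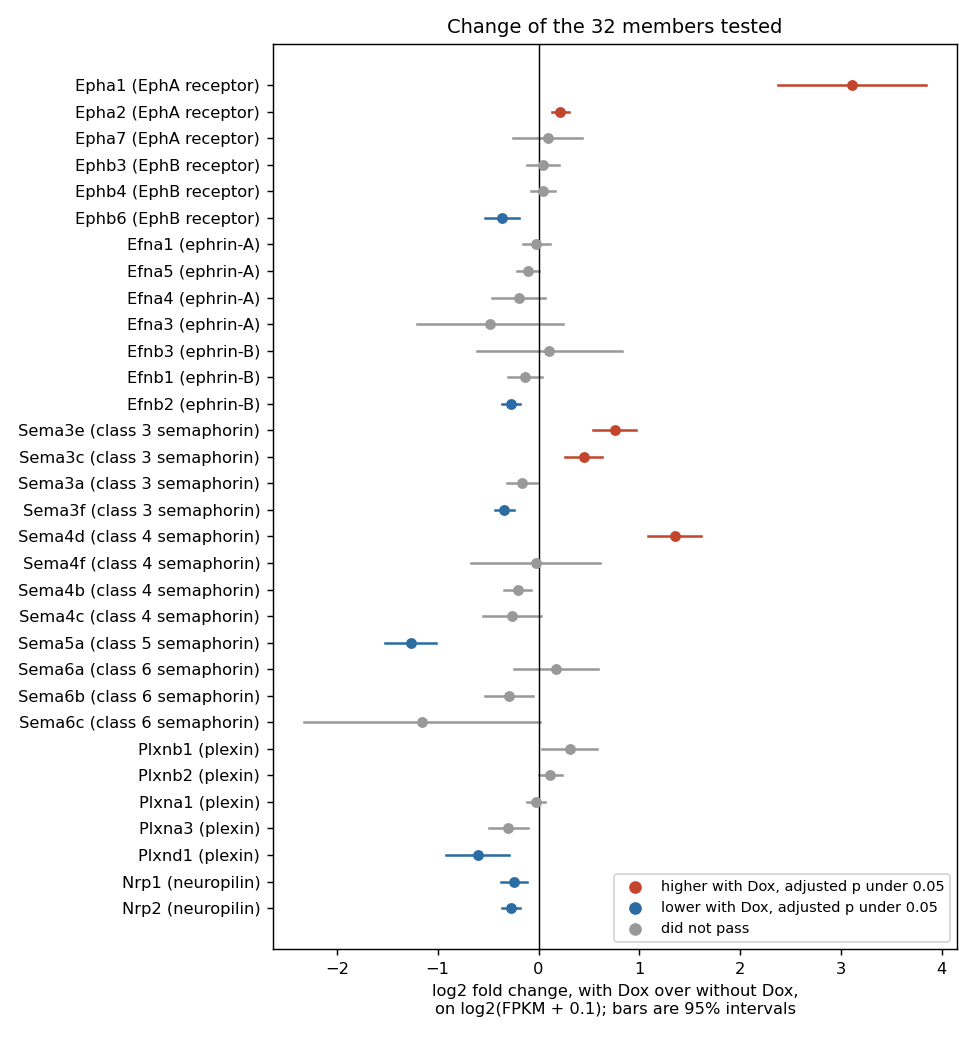
Log2 fold change with Dox over without Dox for the 32 members tested, on log2(FPKM + 0.1), with bars for the 95% intervals and colour for the call. Epha1 (3.11), Sema4d (1.35) and Sema3e (0.75) lie farthest right among the genes that passed, and Sema5a (-1.27) and Plxnd1 (-0.60) farthest left.

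Because the vector encodes miR-200c, the mature miRNA and the members with a match to its seed are shown first. The RefSeq sequence of mmu-miR-200c-3p lies at chr6:124718324-124718346 on the minus strand of GRCm38.p6, and capitals mark its seed, bases 2 to 8.
miR-200c-3p: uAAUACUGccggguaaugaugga
The 3′ untranslated region (UTR) of 1 GENCODE transcript per gene was searched for the reverse complement, CAGTATT, on the transcript strand only. A match was present in 6 of the 32 members tested (18.8%) and in 16.1% of all 10798 genes tested that had a 3′ UTR. Median UTR length was 1278 bases in the members and 1201 bases in all these genes. The sites of the 6 members follow with the flanking bases of GRCm38, on the strand of the transcript, and capitals mark the match.
Efnb2, chr8:8617611-8617639, minus: tgtaagtaacaCAGTATTatgcttgagtt
Sema3f, chr9:107682295-107682323, minus: ccctgcaaagaCAGTATTtattggtgggt
Sema5a, chr15:32695677-32695705, plus: tgtttggctgtCAGTATTtgccctgaagt
Sema3c, chr5:17728623-17728651, plus: caacaaggatgCAGTATTattaaagcatt
Sema3a, chr5:13601214-13601242, plus: tctaattaactCAGTATTaacttctcacc
Efna1, chr3:89272362-89272390, minus: ctcaaaaggttCAGTATTaagggttttaa
Efnb2, Sema3f and Sema5a fell with Dox, Sema3c rose, and Sema3a and Efna1 did not pass the test. The match of Efnb2, Sema3a, Sema3c and Efna1 is followed by an A, which makes an 8-base site, and that of Sema3f and Sema5a by a T. Over all genes tested, 17.3% of those with a match fell and 4.15% rose, compared with 7.33% and 8.53% of those without, and the genes with a match had longer UTRs (median 2524 against 1009 bases). Of the 26 members without a match, 4 fell and 4 rose. A match describes the sequence and does not show that the miRNA bound there.

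Eph receptors were the one group of the ephrin system whose summed level was higher with Dox, and Epha2 was the main component. Epha2, a receptor for ephrin-As that is abundant in many epithelia and carcinomas, measured 134, 129 and 131 FPKM in replicates 1, 2 and 3 without Dox and 148, 154 and 156 FPKM with Dox. Every treated library lay above every control, and the rise was small (log2 fold change 0.22 ± 0.0358 SE, limma adjusted p = 0.00861). Epha2 supplied 57.6% ± 0.684 of the summed Eph receptor FPKM without Dox and 61.0% ± 0.205 with Dox (SD, n = 3).

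Epha1, an ephrin-A receptor found mainly in epithelia, showed the largest log2 fold change of the members that passed. The libraries without Dox were at 0.328, 0.303 and 0.213 FPKM and those with Dox at 3.23, 2.96 and 3.33 FPKM. The groups lay far apart, with a ratio of means of 11.3, a log2 fold change of 3.11 ± 0.311 (SE) and a limma adjusted p of 0.00109. If all its reads came from the longest transcript, these values would stand for 11 to 13 reads per library without Dox and 125 to 175 with Dox. Even with Dox, Epha1 made up 1.27% of the summed Eph receptor FPKM. The longest Epha1 transcript shares 236 of its 3273 exon bases with Zyx on the other strand, and Zyx averaged 320 FPKM without Dox and 293 FPKM with Dox. It also shares 13.6% of its length with 2010010A06Rik, which the control libraries list at 0 and the treated libraries at 0, 0.119 and 1.28 FPKM. The library kit keeps the strand, but the strand setting of the quantification is not given in the sources used here.

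Ephb6, an EphB receptor whose kinase domain is inactive, was at 20.4, 19.4 and 19.0 FPKM without Dox and 14.7, 14.7 and 16.4 FPKM with Dox. The groups did not overlap (log2 fold change -0.36 ± 0.0704 SE, limma adjusted p = 0.0163). This call ended without replicate 1 of the controls (limma adjusted p = 0.0514), without replicate 1 with Dox (0.0545) and without replicate 2 with Dox (0.0599). The other EphB receptors in the range of detection overlapped between the groups. Ephb4, the receptor of ephrin-B2, had 44.4, 43.1 and 42.1 FPKM without Dox and 42.9, 46.7 and 44.0 FPKM with Dox (limma adjusted p = 0.622, 95% interval of the log2 fold change -0.07 to 0.16). Ephb3 had 19.4, 19.5 and 19.8 FPKM and 18.6, 21.0 and 21.1 FPKM in the same order (limma adjusted p = 0.702, interval -0.11 to 0.20). Epha7 varied most between replicates of these receptors, at 16.6, 11.5 and 12.7 FPKM without Dox and 14.3, 12.9 and 16.0 FPKM with Dox.

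Ephb2 stayed below the filter and differed between the control libraries, with 0.805, 0.0245 and 0.617 FPKM, and the treated libraries had 0, 0.0151 and 0 FPKM. In the fit without a filter its limma adjusted p was 0.196. Epha3, Epha8 and Epha10 never exceeded 0.12 FPKM.

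Among the ephrins, 1 of 7 members tested passed, a share close to the 15.0% of all genes tested. Efnb2, the transmembrane ligand ephrin-B2, fell from 53.8, 54.5 and 53.7 FPKM without Dox to 44.9, 44.3 and 44.5 FPKM with Dox. Replicates lay within 1 FPKM of each other in both groups, so that this small difference (log2 fold change -0.28 ± 0.0378 SE, limma adjusted p = 0.00414) was well beyond their spread. Efnb1, the second abundant ephrin-B, had 34.7, 34.0 and 33.0 FPKM and 29.4, 29.2 and 34.1 FPKM. Its treated replicate 3 lay among the controls, and it did not pass (limma adjusted p = 0.258). Efnb3 was near 1 FPKM in both groups. The summed FPKM of the 3 ephrin-Bs was 89.0 ± 0.873 without Dox and 76.7 ± 2.86 with Dox (SD, n = 3).

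None of the 4 ephrin-As tested passed with limma. The count was also 0 at an unadjusted limma p under 0.05, where the lowest was 0.0554 for Efna5, and with the unmoderated model. Efna5 was the highest, with 51.4, 54.7 and 50.6 FPKM without Dox and 48.4, 47.7 and 49.5 FPKM with Dox. The groups were apart for Efna5, but its limma adjusted p was 0.183 and its 95% interval ran from -0.22 to 0.00 on the log2 scale. Efna1 had 29.9, 29.1 and 30.6 FPKM and 30.6, 27.9 and 29.9 FPKM, values that interleaved. Efna4 (11.3, 14.1 and 12.5, then 9.92, 11.0 and 12.0 FPKM) and Efna3 (2.37, 3.52 and 2.05, then 1.56, 1.45 and 2.63 FPKM) also overlapped. Both share annotated sequence with another gene, 10.5% of the longest Efna4 transcript with 4731419I09Rik and 14.6% of that of Efna3 with Gm15998, so their levels are less certain.

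Ephrins and Eph receptors were also compared as ligand and receptor. Summed Eph receptor FPKM was 228 ± 7.01 without Dox and 250.2 ± 7.95 with Dox, and summed ephrin FPKM was 186 ± 4.02 and 168 ± 5.72 (SD, n = 3). Neither sum overlapped between the groups. The ratio of Efnb2 to Ephb4 was 1.21, 1.27 and 1.27 without Dox and 1.05, 0.948 and 1.01 with Dox. The ratio of Efna5 to Epha2 went from 0.398 ± 0.0227 to 0.318 ± 0.00868, and that of Efna1 to Epha2 from 0.228 ± 0.00534 to 0.193 ± 0.0132. For Efna1 and Epha1 the ratio was 91.1, 96.1 and 144 without Dox (mean 110.3 ± 29.0) and 9.29 ± 0.289 with Dox. The levels of Efna1 interleaved between the groups as given above. The ratio without Dox is imprecise, since Epha1 rests there on an estimated 11 to 13 reads per library. These are ratios of transcripts in one culture and not of surface protein.

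In the semaphorin system, the genes that passed split within the same ligand class. Sema3f, the most abundant semaphorin and a ligand of neuropilin-2, was at 136, 138 and 134 FPKM without Dox and 105, 113 and 105 FPKM with Dox. The groups were far apart relative to their spread (log2 fold change -0.34 ± 0.0402 SE, limma adjusted p = 0.00227). Sema3c, which can signal through either neuropilin, rose from 21.3, 23.2 and 21.5 FPKM to 33.2, 29.5 and 27.6 FPKM. The treated libraries all lay above the controls (log2 fold change 0.45 ± 0.0788 SE, limma adjusted p = 0.0111), and the unmoderated model alone ended this call (adjusted p = 0.0576). Sema3e, which binds plexin-D1 without a neuropilin, rose from 5.51, 6.02 and 5.64 FPKM to 9.52, 9.33 and 10.3 FPKM. Its ratio of means was 1.70, with a log2 fold change of 0.75 ± 0.0899 (SE) and a limma adjusted p of 0.00233.

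Sema3a, the founding class 3 repellent and a ligand of neuropilin-1, was second in level. It had 55.0, 56.2 and 54.1 FPKM without Dox and 45.4, 48.9 and 53.3 FPKM with Dox. The groups did not overlap, but treated replicate 3 came within 1 FPKM of the controls and the gene did not pass (limma adjusted p = 0.135). Sema3b, Sema3d and Sema3g stayed under 0.6 FPKM in every library. Summed class 3 FPKM was 219.5 ± 3.96 without Dox and 198 ± 3.48 with Dox (SD, n = 3), with no overlap. Within it the share of Sema3f went from 61.9% to 54.4%, that of Sema3c from 10.0% to 15.3%, and that of Sema3e from 2.61% to 4.93%, while Sema3a held 25.1% and 24.9%.

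Both neuropilins, the ligand-binding co-receptors that class 3 semaphorins share with vascular endothelial growth factors, fell with Dox. Nrp2 had 104, 105 and 101 FPKM without Dox and 88.3, 84.2 and 84.1 FPKM with Dox (log2 fold change -0.28 ± 0.0378 SE, limma adjusted p = 0.00414). Nrp1 had 18.8, 19.1 and 19.1 FPKM and 16.3, 16.0 and 15.6 FPKM (log2 fold change -0.25 ± 0.0550 SE, limma adjusted p = 0.0264). Neither gene overlapped between the groups. The call of Nrp1 ended in each fit that left out 1 library: the limma adjusted p was 0.0587, 0.0761 and 0.0724 without control replicate 1, 2 or 3, and 0.0549, 0.0804 and 0.0939 without treated replicate 1, 2 or 3. Nrp2 supplied 84.5% of the neuropilin FPKM without Dox and 84.3% with Dox, so the mix of the pair stayed close while its sum went from 123 ± 2.05 to 101 ± 2.70 FPKM (SD, n = 3).

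Of the plexins, the signalling receptors, 1 of 5 tested passed (20.0%), which is near the 15.0% of all genes tested. Plxnb2 was the highest, with 97.4, 87.7 and 97.1 FPKM without Dox and 101, 104 and 101 FPKM with Dox. It lay higher in every treated library without passing (limma adjusted p = 0.166, 95% interval of the log2 fold change 0.00 to 0.23). Plxna1 had 51.2, 52.4 and 50.7 FPKM and 50.2, 50.7 and 50.6 FPKM, and its 95% interval ran from -0.12 to 0.06 on the log2 scale. The longest Plxna1 transcript shares 10.8% of its length with Gm26811, which was at or near 0 FPKM. Summed plexin FPKM was 170.1 ± 5.43 without Dox and 176 ± 2.06 with Dox, and these groups overlapped.

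Plxnd1, the receptor of Sema3e, was the plexin that passed. It had 5.27, 4.73 and 4.32 FPKM without Dox and 3.16, 3.15 and 2.98 FPKM with Dox, with no overlap (log2 fold change -0.60 ± 0.133 SE, limma adjusted p = 0.0249). The call ended when control replicate 1 or 2 was left out (limma adjusted p = 0.0751 and 0.0710), when treated replicate 1, 2 or 3 was left out (0.0605, 0.0691 and 0.0816), and when low genes were kept in the fit (0.0505). Plxna3 also lay lower in every treated library, from 8.79, 9.66 and 9.46 FPKM to 7.39, 7.47 and 7.73 FPKM, and just missed the threshold (limma adjusted p = 0.0501). Plxnb1 had 11.9, 9.20 and 9.69 FPKM and 13.5, 12.8 and 11.8 FPKM. Its first control library overlapped the treated group, and the limma adjusted p of Plxnb1 was 0.125 with that library and 0.0415 without it. Plxna2, Plxnb3 and Plxnc1 stayed under 0.3 FPKM.

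**Figure D3:**
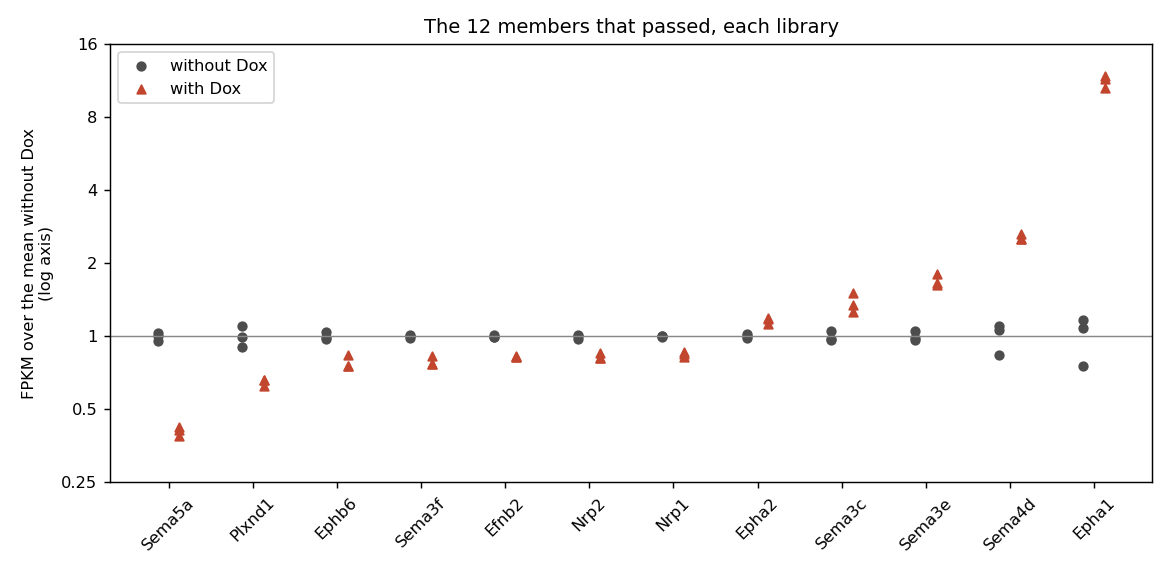
FPKM of each library divided by the gene's mean without Dox (log axis) for the 12 members that passed, ordered by log2 fold change, with circles for the libraries without Dox and triangles for those with Dox. The groups do not overlap in any of the 12; Sema5a is lowest and Epha1 highest, and the 6 genes from Ephb6 to Epha2 lie closest to 1.

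The membrane semaphorins held the larger changes of this system, in opposite directions. Sema4d, a transmembrane ligand of the plexin-B receptors that is also known as CD100, rose from 6.44, 8.16 and 8.46 FPKM without Dox to 19.3, 19.3 and 20.3 FPKM with Dox. Its ratio of means was 2.56, with a log2 fold change of 1.35 ± 0.112 (SE) and a limma adjusted p of 5.41e-04. Sema5a, a transmembrane semaphorin with thrombospondin repeats, fell from 7.34, 7.01 and 7.57 FPKM to 2.84, 3.10 and 2.99 FPKM. The level without Dox was 2.46 times that with Dox (log2 fold change -1.27 ± 0.109 SE, limma adjusted p = 5.87e-04). Both genes were at nearly the same level without Dox, and with Dox Sema4d was the higher in every library.

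Sema4b, the highest membrane semaphorin without Dox, had 16.9, 16.8 and 17.4 FPKM there and 14.9, 14.3 and 15.0 FPKM with Dox. The groups were apart, yet the gene fell short of the threshold (log2 fold change -0.21 ± 0.0580 SE, limma adjusted p = 0.0559). Sema4c had 8.56, 9.40 and 10.4 FPKM and 6.84, 8.17 and 8.67 FPKM (limma adjusted p = 0.209). Sema6b was lower in every treated library, at 10.2, 8.68 and 8.88 FPKM and then 7.45, 8.05 and 7.06 FPKM, but did not pass (limma adjusted p = 0.101). Sema6c ranged from 1.01 to 2.27 FPKM without Dox and from 0.377 to 1.21 FPKM with Dox, and its wide interval (-2.33 to 0.02 on the log2 scale) left the size of any difference undetermined. Sema4f and Sema6a stayed between 1.26 and 2.40 FPKM in all libraries, and Sema4a, Sema4g, Sema6d and Sema7a stayed under 0.5 FPKM.

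Summed membrane semaphorin FPKM was 57.0 ± 1.42 without Dox and 57.9 ± 1.33 with Dox (SD, n = 3), and the groups overlapped. The make-up of that sum differed: Sema4d supplied 13.5% ± 1.68 of it without Dox and 34.0% ± 0.989 with Dox, Sema5a went from 12.8% ± 0.386 to 5.14% ± 0.127, and Sema4b from 29.8% ± 0.323 to 25.4% ± 1.01. With Dox, Sema4d was thus the membrane semaphorin with the highest level.

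**Figure D4:**
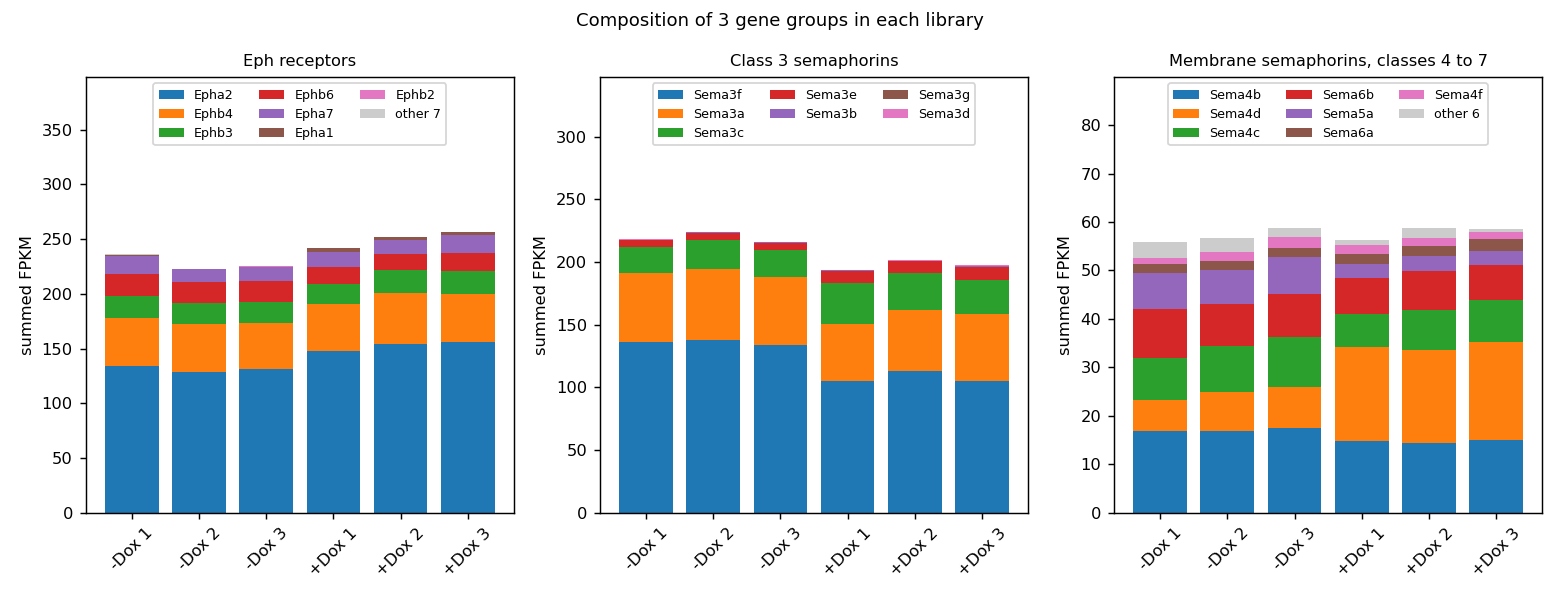
Summed FPKM of the Eph receptors, the class 3 semaphorins and the membrane semaphorins in each of the 6 libraries, stacked by gene (replicates 1 to 3 without and with Dox). The membrane semaphorin bars are of like height in both groups while the Sema4d segment is larger and the Sema5a segment smaller with Dox; the class 3 bars are lower with Dox, chiefly in the Sema3f segment.

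Ligands were then set against their receptors. Of 35 textbook ligand and receptor pairs, 17 had both genes tested. The ratio of ligand to receptor FPKM was higher in every treated library than in every control for 5 pairs and lower for 7, and it overlapped in the other 5. Many of these pairs share a gene, above all Epha2, and the share for ratios of other tested genes was not computed (single genes did not overlap in 35.0%), so these counts are a description and nothing particular to the pairs is read from them. The higher ratios all belonged to Sema3c, Sema3e and Sema4d.

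Sema3e and its receptor Plxnd1 moved apart, and their ratio was 1.04, 1.27 and 1.31 without Dox and 3.01, 2.96 and 3.46 with Dox. For Sema4d the ratio to Plxnb1 was 0.540, 0.887 and 0.873 without Dox and 1.43, 1.51 and 1.73 with Dox, so the ligand went from below to above this receptor in every library. Against the more abundant Plxnb2, Sema4d stayed far lower, at 0.0821 ± 0.0141 and 0.193 ± 0.00839. The ratio of Sema3c to Nrp1 went from 1.16 ± 0.0460 to 1.88 ± 0.134. By contrast, Sema3f and Nrp2 fell together and their ratio overlapped, at 1.30, 1.31 and 1.33 without Dox and 1.19, 1.34 and 1.24 with Dox. The ratio of Sema3a to Nrp1 likewise overlapped (2.90 ± 0.0565 and 3.09 ± 0.320).

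**Figure D5:**
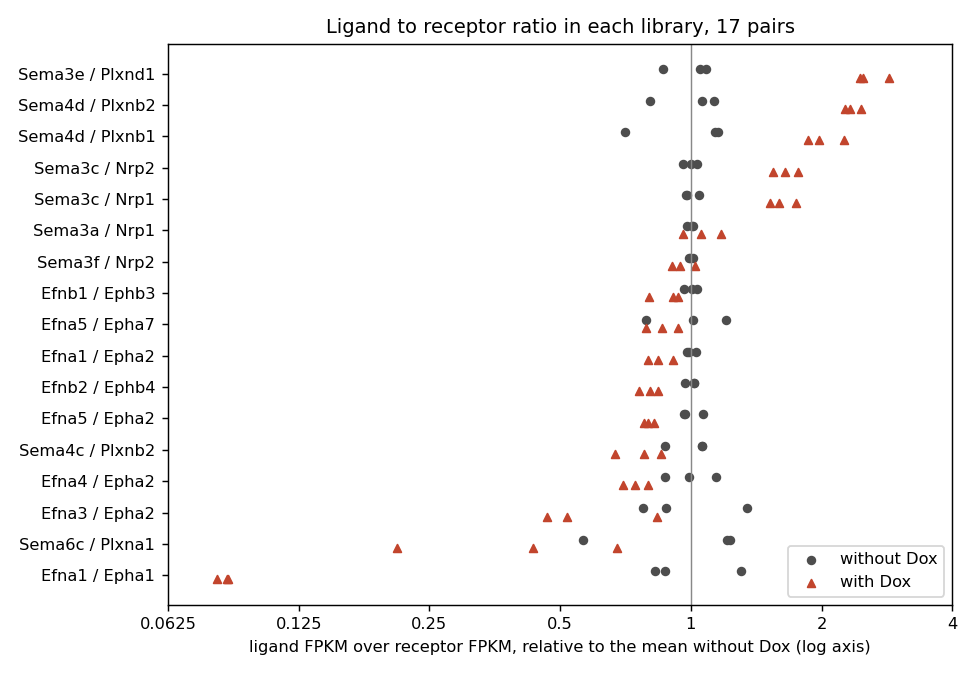
Ratio of ligand to receptor FPKM in each library, divided by the pair's mean without Dox (log axis), for the 17 pairs with both genes tested; circles are libraries without Dox and triangles libraries with Dox. The 5 pairs at the top that involve Sema3e, Sema4d and Sema3c lie to the right of their controls, and Efna1 over Epha1 lies farthest to the left.

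Genes that act with these ligands and receptors, surface receptors and proteases included, were taken from a list of 64. Of these, 23 were listed for ephrin and Eph signalling and 41 for semaphorin and plexin signalling. Of the 50 tested, 4 rose and 8 fell with Dox (24.0%, beside 15.0% of all genes), and their median log2 fold change was -0.06. Src, a kinase that acts downstream of Eph receptors and of ephrin-Bs, rose from 81.3, 91.8 and 79.9 FPKM without Dox to 152, 160 and 158 FPKM with Dox (log2 fold change 0.90, limma adjusted p = 2.01e-04). Other kinases of the same family split: Yes1 rose from a mean of 23.0 to 27.3 FPKM and Fyn fell from 88.4 to 73.1 FPKM. Kalrn, an exchange factor linked to EphB signalling, fell from 44.0 to 38.6 FPKM.

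On the semaphorin side, the plexin-binding Rnd1 and Rnd3 moved in opposite directions. Rnd1 rose from 12.2 to 17.1 FPKM and Rnd3 fell from 26.0 to 19.7 FPKM (limma adjusted p = 0.00855 and 0.00387). Rhoa, the GTPase that controls actin contraction, fell from 477 to 427 FPKM. Dpysl2, a collapsin response mediator that relays Sema3a signals, fell from 37.4 to 30.8 FPKM, and Mical3, of the plexin-binding MICAL family, from 24.2 to 20.1 FPKM. Fes, a kinase that associates with plexin-A1, fell from 14.8 to 11.4 FPKM, and Trio, a guanine nucleotide exchange factor, from 32.3 to 27.3 FPKM. Met, a receptor tyrosine kinase that can associate with plexin-B1, rose from 66.3 to 77.1 FPKM. Src, Dpysl2, Rnd1 and Rnd3 passed in all alternative fits tried, and Rhoa in all but the fit without a variance trend. Leaving out 1 library ended the other calls. Yes1 no longer passed without any 1 of the 6 libraries (limma adjusted p up to 0.133), Kalrn without any but treated replicate 2 (up to 0.133), and Met without any but control replicate 1 (up to 0.132), each with the highest p without treated replicate 3. Yes1, Kalrn and Met also missed the threshold with no filter, without the variance trend and with the unmoderated model, and Met with quantile normalization. Mical3 was lost without control replicate 1 or 2 or treated replicate 1 or 2 (up to limma adjusted p = 0.0785), and Fes without control replicate 2 or 3 or treated replicate 1 or 2 (up to 0.0613). Fyn was lost without treated replicate 1 or 2 (limma adjusted p = 0.0553 and 0.0511) and with the unmoderated model (adjusted p = 0.0665), and Trio without control replicate 2 or treated replicate 2 or 3 (up to 0.0541).

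ZEB factors are known to bind the E-box CACCTG, so promoters were read for that motif on both strands, where its reverse complement is CAGGTG. RefSeq promoters of GRCm38.p6, from 250 bases before to 50 bases after the start site, were found for 47 members. A match stood in 8 of them (17.0%), compared with 22.6% of all gene symbols in the promoter table and 19.5% of the symbols tested here. Of the 12 members that passed, Epha1 and Efnb2 held one, in 30-base windows shown 5′ to 3′ on the strand of the gene with the motif in capitals.
Epha1, chr6:42373322-42373351, minus: aagaaggtgaacCAGGTGaggctgaggccc
Efnb2, chr8:8661392-8661421, minus: gggggcggggctCACCTGtcaggggcgccc
Epha1 rose and Efnb2 fell with Dox, and a part of ZEB factors in either change was not tested. Binding was not measured in these libraries. Efnb3, Plxna1, Plxna4, Sema3b, Sema3f and Sema6a had no entry.

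On the GRCm38 annotation, several of the members that passed share a chromosome. Epha1 (chr6:42358487-42373268, minus strand), which rose, and Ephb6 (chr6:41605482-41620509, plus strand) and Plxnd1 (chr6:115954811-115995005, minus strand), which fell, lie on chromosome 6. Sema3c (chr5:17574281-17730268) and Sema3e (chr5:14025276-14256689), which both rose, lie on chromosome 5, plus strand. Sema3a lies on the same strand at chr5:13125414-13602565, did not pass and was lower in every treated library. Efnb2 (chr8:8617434-8661242, minus strand) and Nrp1 (chr8:128358604-128503363, plus strand) lie on chromosome 8. Sema4d lies at chr13:51685529-51793747 on the minus strand and Sema5a at chr15:32244810-32696341 on the plus strand.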

How the data were processed

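Single 50-base reads of stranded mRNA libraries were mapped by the authors with gSNAP to the mouse genome (GRCm38.p6 per the submitters' notes; an FVB/NJ assembly is also named and was not used here) and quantified with Cufflinks. The deposited values are FPKM per gene and library. The authors also deposited group means in FPKM, a fold score, p-values of a per-gene test and q-values as a score with a placeholder; the fold score, p-values and q-values hold their own comparison and were not used. Versions and the strand setting are not given in the sources used here.

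Of repeated identifiers only the highest-mean row stayed (63 dropped), leaving 43548 genes, and a placeholder in 6 cells was treated as missing. Groups were taken from the sample labels. The 12879 genes whose mean reached 1 FPKM entered limma 3.58.1 as log2(FPKM + 0.1) (eBayes with a trend, R 4.3.3), with group as the only term and Benjamini-Hochberg adjustment over all of them at a threshold of 0.05. Log2 fold changes are on that scale, which understates changes of low genes. Genes below the filter come from the same model over all 20513 genes above 0. With 3 libraries against 3 an exact permutation test cannot go below 0.1, so sums, shares and ratios are given without a test. The model was tested on simulated data.

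FPKM removes depth, but in genes with 1 transcript the FPKM times the length less 214 bases gave whole reads (within 0.1) for 84.8% to 95.1% of values of 1 to 10 reads, from which depth was estimated. All 37 mitochondrial genes and the miR-200c gene itself are listed at 0 in every library, so an exact 0 may be a failed estimate or a gene left out of quantification. In any pair of libraries at most 2 genes above 0 had identical values.

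Members and gene lists were chosen with earlier results of these data known. Members are named with values where they passed, led their subfamily or were a listed partner of such a gene. Seed matches were searched in the 3′ UTR of 1 GENCODE vM21 transcript per gene, promoters and the miRNA are from RefSeq, and shared sequence was found with BLAST 2.17.0 (95% identity over at least 50 bases, marked from 10% of the length). Joins and plots were made in Python 3.11.15 (pandas 2.3.3, matplotlib 3.10.9). Alternatives were other pseudocounts (1 and 0.01), the filter dropped or raised to 5 FPKM, libraries brought to equal medians or quantile-normalized, limma with the trend off, an unmoderated linear model on log2(FPKM + 1), the replicate number as a block, and leaving out each library in turn.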

Additional observations from a re-analysis of the deposited data

How the results depend on the processing

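Epha1, Epha2, Efnb2, Sema3e, Sema3f, Sema4d, Sema5a and Nrp2 kept their direction and passed in every alternative that could be fitted; no minimum of 5 FPKM could be applied to Epha1, whose mean is lower. Leaving out 1 library gave 479 to 688 genes higher and 590 to 709 lower over all genes (909 and 1026 with all libraries), 2 ephrin and Eph members higher and 1 to 2 lower, 3 to 4 semaphorin system members higher and 3 to 4 lower, and 2 to 3 pathway genes higher and 4 to 6 lower. The unmoderated model called 598 genes higher. A minimum mean of 5 FPKM left 1 ephrin and Eph member higher, since Epha1 is then not tested. Pathway genes higher numbered 2 with no filter, 2 without the variance trend and 2 with the unmoderated model. Sema4b and Plxna3 passed without the trend (adjusted p = 0.0353 and 0.0242) and with the unmoderated model (0.0226 and 0.0357).

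Whether the replicate numbers pair the libraries is not known. After subtraction of the group means, libraries of equal number correlated at 0.0287, 0.0359 and -0.00759. Those of unequal number correlated at -0.051 to 0.024, and 3 libraries per group are too few to decide. With the replicate block in limma, 1337 of all genes passed (10.4%) and 9 members did, all among the 12: Ephb6, Plxnd1 and Nrp1 had adjusted p = 0.0523, 0.0630 and 0.0800, leaving 1 ephrin and Eph member and 3 semaphorin system members lower. Pathway genes were then 2 higher and 5 lower.

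The log2 fold change turned sign in members that never passed: Epha7 (-0.019 without control replicate 2; 0.24 at most, without control replicate 1), Efna1 (0.019 without treated replicate 2; -0.049 at least, without treated replicate 1) and Sema4f (0.00016 with quantile normalization, and 0.0043, 0.16 and 0.02 without control replicate 2, control replicate 3 and treated replicate 3; -0.24 without control replicate 1). The causes were not tested. Depth limits the precision of Epha1 without Dox and of members with few reads. Ephb2 also differed between the control libraries, at an estimated 111, 3 and 111 reads if all came from its longest transcript. For none of the 15 members below 1 FPKM was a difference detectable with limma without a filter. Among these, the FPKM of Ephb2 and Sema6d was lower in every treated library than in every control, but some of these values rest on few reads. In replicate 2, Ephb2 had an estimated 3 reads both without and with Dox, and Sema6d had 12 and 13. The share of other low genes without overlap was not computed, so nothing particular to these 2 genes is read from it.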
